A study of Arabidopsis thaliana with 9 samples.

Results

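*QQS*, the phosphoglucomutase genes and a set of starch genes were followed in root tips of 3 genotypes of *Arabidopsis thaliana*. The set holds 8 loci: *QQS* (AT3G30720), the phosphoglucomutase genes *PGM2* (AT1G70730), *PGM3* (AT1G23190) and *PGM1* (AT5G51820), the ADP-glucose pyrophosphorylase genes *APL1* (AT5G19220) and *ADG1* (AT5G48300), the starch synthase gene *GBSS1* (AT1G32900) and the glucan water dikinase gene *SEX1* (AT1G10760). Of these, 2 have a probe set named here, *QQS* and *PGM2*, among the 13287 genes that have their own probe set here. The other 6 are not named in the annotation used here and were not analysed here. *QQS* was matched through the array annotation. The probe set of *PGM2* is not in that annotation and takes its name from the study's own list of probe sets. The loci were chosen by a rule that drew on the signals of Cvi and L*er* on these same arrays, so the Cvi minus L*er* differences of *QQS* and *PGM2* are descriptions with no test.

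The compared genotypes were the natural accession Cvi (Cape Verde Islands, Cvi-1), the natural accession L*er* (Landsberg *erecta*, L*er*-2) and a NIL, or near isogenic line, called 170G-55-16 or HGI2.1, for which the labels name neither the parents nor the introgressed segment. There were 3 arrays per genotype, each with RNA from about 600 root tips of 7 mm taken from 5-day-old seedlings. All seedlings had grown on hard agar, for 2 d on vertical plates and for 3 d on plates tilted back by 30°, and the labels give no other treatment. The value of a probe set on an Affymetrix ATH1 array is a hybridization signal, a linear intensity that had been normalized between arrays by the authors.

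Phosphoglucomutases interconvert glucose 1-phosphate and glucose 6-phosphate. The plastid enzyme, *PGM1*, feeds ADP-glucose pyrophosphorylase, whose small subunit is *ADG1* and one of whose large subunits is *APL1*, and starch synthases such as *GBSS1* then build the glucan chains. *SEX1* phosphorylates starch before it is broken down. *PGM2* and *PGM3* are the cytosolic enzymes and act between sucrose, cell wall precursors and respiration. *QQS* encodes a small protein with no recognizable relative outside *A. thaliana*, and plants with less *QQS* store more starch in their leaves. It is also known for natural variation in expression among accessions that goes with DNA methylation of its upstream region. In root tips, starch fills the amyloplasts of the root cap cells that sense gravity.

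Before these genes are described, 3 facts of the arrays bear on them. Cvi array 1 correlated with the other Cvi arrays at r = 0.978 and 0.980 over all probe sets, whereas all other pairs within a genotype correlated at 0.996 to 0.998. Where leaving it out changed the call of a gene named below, the value without it is given beside that call. The difference between the 3′ and 5′ probe sets of actin was smaller in Cvi (1.22 to 2.12 on the log2 scale) than in L*er* (2.69 to 2.93) and the NIL (2.48 to 2.98), and that of ubiquitin was larger in Cvi (1.71 to 2.07) than in L*er* (0.96 to 1.25) and the NIL (1.09 to 1.32). That of GAPDH was −1.22 to −0.96 in Cvi, −0.95 to −0.89 in L*er* and −1.07 to −0.97 in the NIL, so that Cvi and the NIL overlapped. Of the 11 listed genes of root tissues, 1 is named in the annotation, the root hair expansin gene *EXPA7*. Its signals were 862 to 1348 on all 9 arrays. Its Cvi minus L*er* difference was 0.26 (limma adjusted p = 0.233), and 0.39 (adjusted p = 0.0129) without Cvi replicate 1. Of the 11 listed leaf photosynthesis genes, 3 are named, *RCA*, *LHCB4.1* and *PRK*, and their summed signal was 680 to 768 in Cvi, 957 to 990 in L*er* and 873 to 993 in the NIL, with *PRK* at 11.6 to 17.5. *RCA*, the Rubisco activase gene, was lower in Cvi (difference −0.47, limma adjusted p = 0.0467), a call that held without Cvi replicate 1 (adjusted p = 0.00173) but was lost without any one of the other 8 arrays (adjusted p up to 0.158), with the replicate number as a block (0.0771), with trend and robust estimation (0.0594) and in the fit to the 6 arrays compared (0.0984). None of the 3 listed root cap genes is named here. Whether RNA quality or the makeup of the tissue has a part in the differences below was not tested, and with pooled root tips fewer cells of a type and less RNA per cell cannot be told apart.

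*QQS* gave a strong signal in Cvi and one near the bottom of the scale in both other genotypes. Its signal was 711, 2100 and 1605 on Cvi arrays 1, 2 and 3. On the L*er* arrays it was 15.4, 16.4 and 14.9, and on the NIL arrays 16.3, 16.8 and 15.9. Every Cvi array was far above every L*er* and NIL array, while the signals of L*er* and the NIL overlapped. On the log2 scale these are 10.39 ± 0.81 in Cvi, 3.96 ± 0.07 in L*er* and 4.03 ± 0.04 in the NIL (SD, n = 3 arrays each). The Cvi minus L*er* difference was 6.43 (standard error, SE, 0.31, with a 95% confidence interval of 5.75 to 7.11). The SE and interval rest on 1 estimate of the spread shared by the genotypes. They understate the spread of the Cvi arrays, whose SD was far above the others. The geometric means were 1338 and 15.5, whose ratio is 86.1. Over all 22746 probe sets tested, 3.88% differed between these accessions by at least 2-fold at an adjusted p under 0.05, a value printed here for reference only, since *QQS* entered the set through this contrast.

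The *QQS* signals of L*er* and the NIL lay below 41.4, the limit under which 1 in 3 of all probe sets had their mean signal, and no detection call was used, so that the ratio, the difference and its interval depend on the background of the arrays. With 16 added to every signal the difference was 5.43. The *QQS* signals of Cvi also varied more than those of most probe sets. The highest was 2.95 times the lowest, and 0.673% of all probe sets had a Cvi SD at least as large, against a median SD of 0.20. The low value was that of Cvi array 1, the array that stood apart. Without it the difference was 6.88 (SE 0.11). In L*er* and the NIL, the *QQS* signals differed by at most 1.09-fold and 1.05-fold between arrays.

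*PGM2*, a cytosolic phosphoglucomutase gene, showed the opposite direction, with lower signals in Cvi. Its signal was 127, 114 and 110 on the Cvi arrays. It was 589, 708 and 602 on the L*er* arrays and 578, 634 and 579 on the NIL arrays. Again the Cvi arrays did not overlap with any other array, and L*er* and the NIL overlapped. The log2 signal was 6.86 ± 0.11 in Cvi, 9.30 ± 0.15 in L*er* and 9.22 ± 0.08 in the NIL (SD, n = 3 arrays each). The Cvi minus L*er* difference was −2.44 (SE 0.11, 95% confidence interval −2.68 to −2.19), a 5.42-fold ratio, and it ranked 77 among the probe sets lower in Cvi. In contrast to *QQS*, the *PGM2* signal lay above this limit of dim signals on all 9 arrays. Its spread was small in all genotypes, with a highest signal 1.15 times the lowest in Cvi, 1.2 times in L*er* and 1.1 times in the NIL. Without Cvi array 1 the difference was −2.50. Differences in sequence between the accessions at the probes were not examined, for *PGM2* or for any other gene here. Whether the *PGM2* probe set also detects *PGM3* was not tested.

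**Figure D1:**
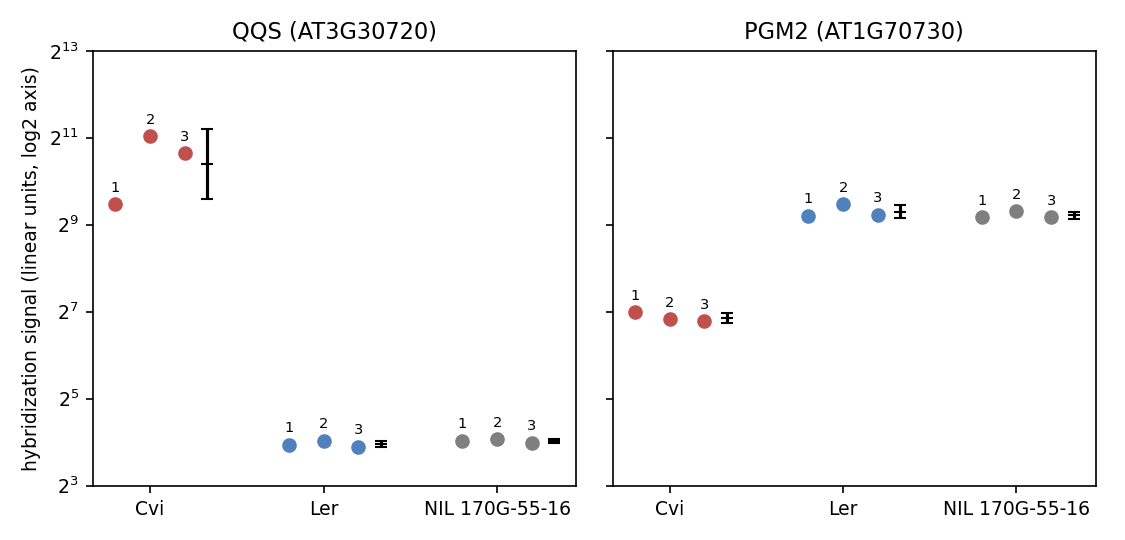
Hybridization signal of *QQS* (left) and *PGM2* (right) on each of the 9 arrays, on a log2 axis, with replicate numbers above the points and black bars for the geometric mean with 1 SD of the log2 signal. The Cvi arrays lie apart from the others for both genes, high for *QQS* (711 to 2100) and low for *PGM2* (110 to 127), and the NIL arrays lie among or beside those of L*er*.

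The comparison of the NIL with L*er* was tested. It shares the L*er* arrays with the comparison above, and the set was chosen with results of all 9 arrays known, so this test is not independent of the choice. Neither gene passed. The NIL minus L*er* difference of *QQS* was 0.07 (SE 0.31, 95% confidence interval −0.61 to 0.75, limma adjusted p = 1). That of *PGM2* was −0.08 (SE 0.11, 95% confidence interval −0.32 to 0.16, limma adjusted p = 1). Exact two-sided permutation tests gave p = 0.3 for *QQS* and p = 0.5 for *PGM2*, where 3 arrays against 3 allow no p below 0.1. The wide interval of *QQS* includes the spread of the Cvi arrays, with which the genotypes share 1 estimate. In a fit to the 6 NIL and L*er* arrays alone, the interval was −0.11 to 0.25 for *QQS* (limma adjusted p = 0.806) and −0.29 to 0.13 for *PGM2* (limma adjusted p = 0.817). These intervals leave out differences of the size seen in Cvi but not small ones. Over all probe sets, 42.3% differed less between the NIL and L*er* than *QQS* did, and 48% less than *PGM2*. Measured against Cvi, the NIL minus Cvi differences were −6.36 for *QQS* and 2.36 for *PGM2*, given with no test because the Cvi arrays chose both genes. On a scale with L*er* at 0 and Cvi at 1, the NIL lay at 0.01 for *QQS* and at 0.03 for *PGM2*. In order of level, therefore, *QQS* ran from Cvi down to the NIL and L*er*, and *PGM2* from L*er* and the NIL down to Cvi. In both orders the neighbours L*er* and the NIL did not differ beyond their spread. For *QQS*, however, both lay below the limit of dim signals (41.4) and no detection call was used. A lower level of *QQS* in either of them could therefore not have been seen.

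Of 67 listed genes of starch synthesis, starch degradation and the cytosolic hexose phosphate and sucrose pathway, 12 are named in the annotation, with a probe set each. Probe sets of the other listed genes may be among the 8730 to which the annotation gives no gene, and these were not examined. Between Cvi and L*er*, 1 of the 12 was higher in Cvi and 0 were lower at an adjusted p under 0.05, and 5 were higher and 0 lower at an unadjusted p under 0.05. Over all probe sets, 5.75% were higher and 7.27% lower in Cvi at the adjusted threshold, so that the adjusted count of the list is near this background. At an unadjusted p under 0.05, 11.9% of all probe sets were higher and 13% lower. The 5 higher of 12 lie above that share and the 0 lower below it. Whether the list departs from the background was not tested. The adjusted count ran from 0 to 4 when 1 replicate was left out, and was 4 without Cvi replicate 1 (3 higher and 1 lower). The median difference of the 12 was 0.24, against 0.01 over all probe sets, and their differences ran from −0.30 to 0.52.

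In starch synthesis, 5 of 20 listed genes outside the set are named, and none passed between Cvi and L*er* in limma (2 at an unadjusted p under 0.05). *APL3* and *APL4*, which encode further large subunits of ADP-glucose pyrophosphorylase, differed by −0.09 (SE 0.18, limma adjusted p = 0.819, and −0.31 with adjusted p = 0.112 without Cvi replicate 1) and by 0.10 (SE 0.09, limma adjusted p = 0.543). Both signals were low, with *APL3* at 20.1 to 35.7 and *APL4* at 8.67 to 10.3 on the 9 arrays. *SS5*, of the starch synthase family, had signals of 338, 372 and 332 in Cvi and 297, 297 and 236 in L*er*. Its Cvi arrays were above all L*er* arrays, at a difference of 0.33 (SE 0.12, limma adjusted p = 0.0926) that passed without Cvi replicate 1 (adjusted p = 0.0462). The branching enzyme gene *SBE2.2*, whose product makes the branch points of amylopectin, had a difference of 0.40 (SE 0.15, limma adjusted p = 0.105), and of 0.25 without Cvi replicate 1. *PTST1*, which guides GBSS to starch granules, had one of −0.30 (SE 0.14, limma adjusted p = 0.23).

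In starch degradation, 4 of 25 listed genes outside the set are named, and 1 was higher in Cvi. *GWD2*, a relative of the dikinase *SEX1*, had signals of 22.3, 23.6 and 21.1 in Cvi, 13.8, 18.9 and 14.4 in L*er* and 17.3, 17.4 and 18.1 in the NIL. Its Cvi arrays lay above all others, by 0.52 over L*er* (SE 0.13, limma adjusted p = 0.0203), a 1.44-fold ratio. All its signals lay below the limit of dim signals, and the call was lost without L*er* replicate 1 (adjusted p = 0.1), L*er* replicate 3 (0.0923) or Cvi replicate 2 (0.0555) and in the fit to the 6 arrays compared (0.0741), while it held without Cvi replicate 1. *PWD*, the phosphoglucan water dikinase that acts after *SEX1*, had signals of 350, 208 and 205 in Cvi and 171 to 212 in L*er*. Cvi array 1 alone stood above L*er*, and the difference of 0.36 did not pass (SE 0.20, limma adjusted p = 0.318) and was 0.11 without that array. *DPE1*, a plastid enzyme that works on maltotriose, had one of 0.25 (limma adjusted p = 0.166), and the α-amylase gene *AMY1* one of −0.14 (limma adjusted p = 0.64).

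In the cytosolic pathway around *PGM2*, 3 of 22 listed genes outside the set are named, and none passed (1 at an unadjusted p under 0.05). The cytosolic phosphoglucose isomerase gene *cPGI*, whose product makes glucose 6-phosphate from fructose 6-phosphate, had signals of 1337, 965 and 987 in Cvi, 1198, 1188 and 1119 in L*er* and 1116 to 1136 in the NIL. Cvi array 1 was above and the other Cvi arrays below all L*er* arrays, and the difference was −0.11 (SE 0.13, limma adjusted p = 0.683). Without Cvi replicate 1 it was −0.26 (adjusted p = 0.0463). The sucrose phosphate phosphatase gene *SPP2* had signals of 498, 480 and 461 in Cvi, above all L*er* arrays at 370 to 409. Its difference of 0.32 (SE 0.09, limma adjusted p = 0.0501) fell just short of the threshold and passed without Cvi replicate 1 (0.29, adjusted p = 0.0387). The sucrose phosphate synthase gene *SPS4F* had one of 0.22 at signals of 8.16 to 12.5.

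Of 3 measured relatives of the phosphoglucomutases, none passed between Cvi and L*er* (0 at an unadjusted p under 0.05 in limma). Over all probe sets, 5.75% were higher and 7.27% lower in Cvi at the adjusted threshold (11.9% and 13% unadjusted), and a count of 0 in 3 is near this background. The 3 genes were picked by protein family from the genes named in the annotation. AT1G70820, a putative phosphoglucomutase gene, had a difference of 0.13 between Cvi and L*er* (SE 0.13, limma adjusted p = 0.613), at low signals of 9.86 to 13.3. AT5G17530, of the phosphoglucosamine mutase family, had signals of 447, 284 and 311 in Cvi and 361 to 381 in L*er*, with Cvi array 1 above and the others below. Its difference was −0.12 (SE 0.16, limma adjusted p = 0.703), and −0.32 without Cvi replicate 1 (adjusted p = 0.0337). *DRT101*, a phosphoacetylglucosamine mutase gene, had one of 0.01 (SE 0.13, limma adjusted p = 0.97). The 95% confidence intervals of AT5G17530 (−0.47 to 0.22) and *DRT101* (−0.28 to 0.31) leave out a change of the size of *PGM2*. For AT1G70820 a drop of that size could not have been seen, since its signals lay near the bottom of the scale.

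Between the NIL and L*er*, none of the 14 measured probe sets of these pathways, *QQS* and *PGM2* included, passed in limma at the adjusted threshold, and 0 at an unadjusted p under 0.05. For *QQS* and *PGM2* this test is not independent of their choice, and *QQS* lay below the limit of dim signals in both genotypes. Over all probe sets, 0.101% were higher and 0.255% lower in the NIL (1.04% and 2.8% at an unadjusted p under 0.05), and a count of 0 in 14 is near that background. The differences ran from −0.18 (*PWD*) to 0.18 (*GWD2*), with a median of −0.04 against −0.02 over all probe sets. The other 3 phosphohexomutase genes had NIL minus L*er* differences of −0.04 to 0.06 and also did not pass (0 at an unadjusted p under 0.05).

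**Figure D2:**
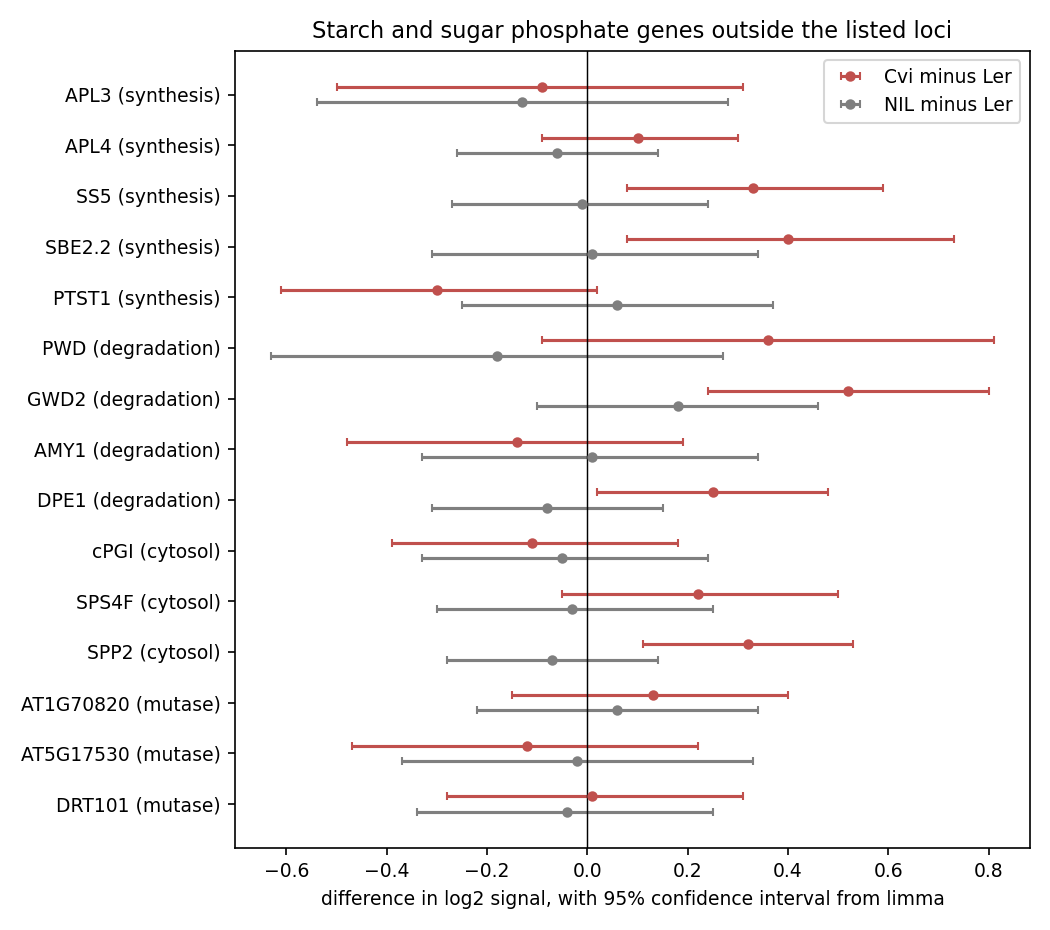
Difference in log2 signal (x axis) of 15 genes of starch, sucrose and sugar phosphate metabolism outside the set, as Cvi minus L*er* (red) and NIL minus L*er* (grey), with 95% confidence intervals from limma. All estimates lie between −0.30 and 0.52, and that of *GWD2* between Cvi and L*er* is the only one that passed the adjusted threshold.

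No neighbour with a named probe set showed a difference of the size seen at *QQS* or *PGM2*. The 5 nearest genes with a named probe set on either side were taken, by the order of the genes on the chromosome. For *QQS*, on chromosome 3, the nearest such genes are AT3G30710, 12 genes before, and AT3G30730, 4 genes after. The 10 neighbours reach 32 genes before and 37 genes after, and genes between them with no named probe set were not examined. Their signals were low throughout, 6.01 to 35.2. Their Cvi minus L*er* differences ran from −0.15 to 0.08, and none passed in limma (0 at an unadjusted p under 0.05), against 6.43 at *QQS*. Over all probe sets, 5.75% were higher and 7.27% lower in Cvi at an adjusted p under 0.05 in limma (11.9% and 13% unadjusted). A count of 0 in 10 is near the adjusted share. Signals this low would hide a drop in Cvi.

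For *PGM2*, on chromosome 1, the genes directly beside it, AT1G70720 and AT1G70740, are both measured. AT1G70720 had signals of 95.2, 135 and 136 in Cvi and 143, 140 and 178 in L*er*, a difference of −0.34 (SE 0.16, limma adjusted p = 0.215). AT1G70740 had a difference of −0.24 (SE 0.13, limma adjusted p = 0.323). Over the 10 neighbours, with signals of 13.1 to 4155, the differences ran from −0.34 to 0.18 and none passed in limma (1 at an unadjusted p under 0.05), although a drop like that of *PGM2* could not have been seen at the dimmest of them. The NIL minus L*er* differences of the neighbours ran from −0.10 to 0.25 around *QQS* and from −0.28 to 0.02 around *PGM2*, with none called (0 at an unadjusted p under 0.05 in either group). Over all probe sets, 5.75% were higher and 7.27% lower in Cvi at the adjusted threshold (11.9% and 13% unadjusted). In the NIL these shares were 0.101% and 0.255% (1.04% and 2.8% unadjusted). The adjusted counts of 0 in 10 are near these shares.

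**Figure D3:**
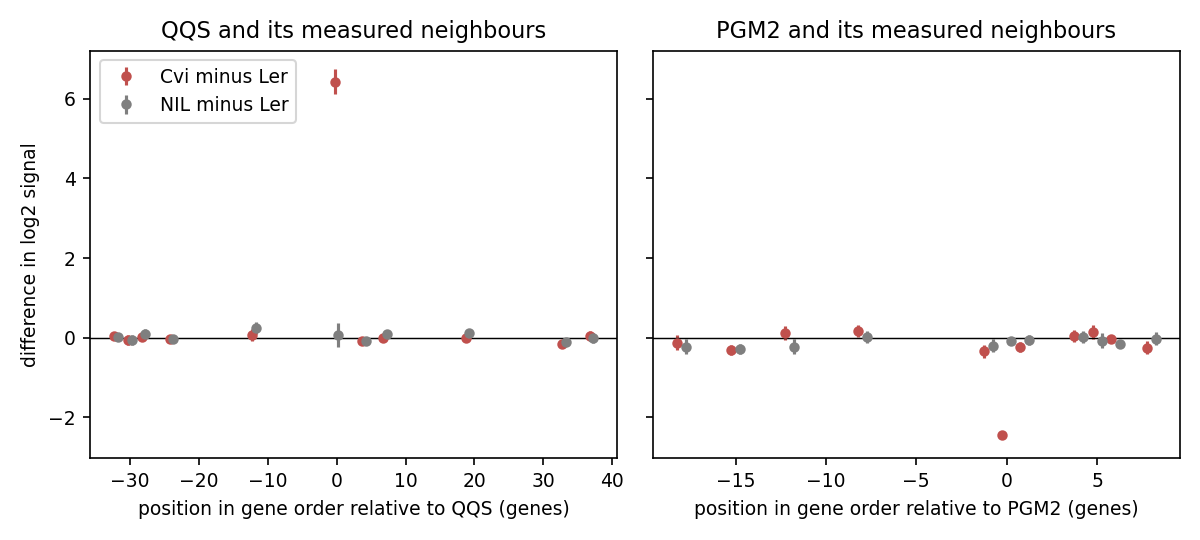
Difference in log2 signal (y axis, with bars of 1 standard error) of *QQS* (left) and *PGM2* (right) at position 0 and of their 10 nearest neighbours with a named probe set. The x axis is gene order, in genes, with Cvi minus L*er* in red and NIL minus L*er* in grey. The red points at position 0, 6.43 and −2.44, stand apart from neighbours that lie between −0.34 and 0.18.

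The genes whose pattern over the 9 arrays was most like that of *QQS* were AT5G28560 (Pearson r = 0.9985), AT1G03710 (0.9982), AT1G30990 (0.9976), *AILP1* (0.9954) and AT4G27400 (0.9940). They were taken by r of the log2 signal from 577 named probe sets whose genotype means differed by at least 1. Because 6 of the 9 arrays form 1 low group and Cvi the other, r mostly reflects the difference between Cvi and the rest, and these values are a description. Cvi array 1 had the lowest Cvi signal of each of these genes, as of *QQS*, which the choice by r over the same arrays partly fixes. The order of Cvi arrays 2 and 3 was not the same in all of them. AT1G03710 had signals of 289, 539 and 493 in Cvi and 13.4 to 17.4 in the other genotypes. AT1G30990 had 418, 896 and 863 in Cvi and 44.5 to 55.2 elsewhere. *AILP1*, named for its likeness to aluminium-induced proteins, differed least, with 966, 1072 and 1095 in Cvi and 430 to 485 elsewhere. These genes lie on chromosomes 1, 4 and 5, and none is near *QQS*.

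For *PGM2*, the most similar were AT5G36210 (r = 0.9977), AT3G29410 (0.9975), AT4G26910 (0.9974), AT4G13130 (0.9969) and AT5G48900 (0.9964), all low in Cvi. AT4G26910 encodes an E2 subunit of the 2-oxoglutarate dehydrogenase complex of the citric acid cycle, and its signal was 244, 224 and 183 in Cvi against 2488 to 2843 elsewhere. AT3G29410, a terpene synthase gene, had 30.4, 27.0 and 27.3 in Cvi and 663 to 963 elsewhere. AT5G48900, of the pectate lyase family, had 229, 227 and 210 in Cvi and 748 to 857 elsewhere. On every array of L*er* and the NIL these 3 genes were above every Cvi array, which the choice by likeness to *PGM2* implies.

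**Figure D4:**
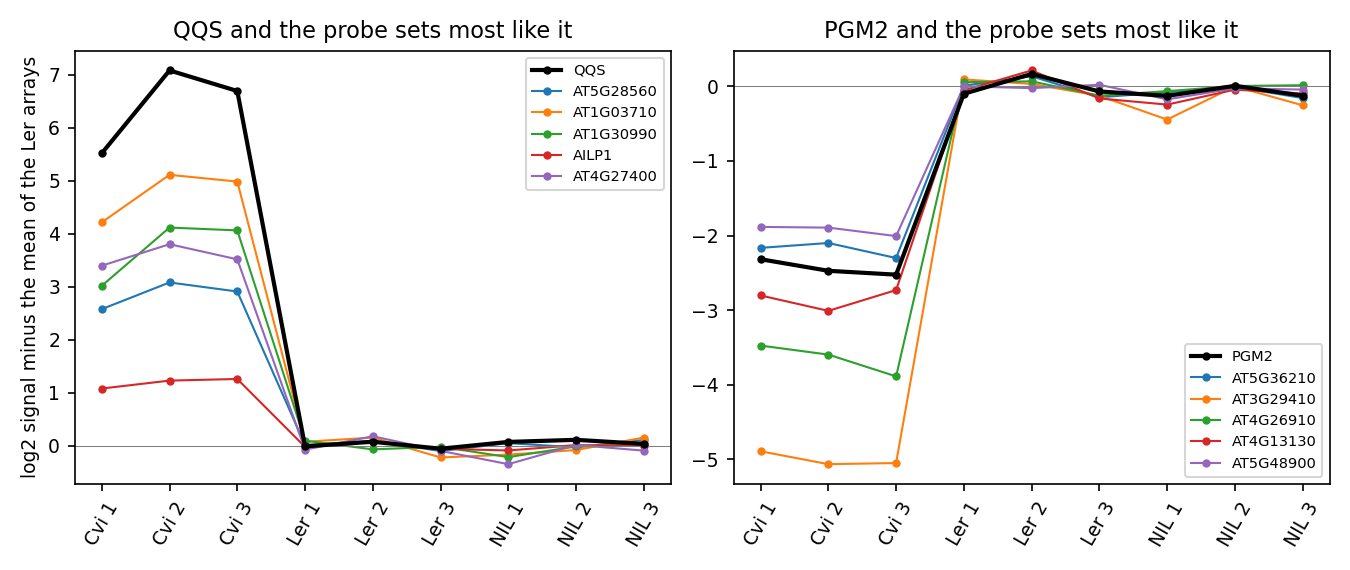
Log2 signal minus the mean of the 3 L*er* arrays (y axis) on each of the 9 arrays (x axis) for *QQS* and *PGM2* (black) and the 5 named probe sets most like each by Pearson r. Cvi stands apart from L*er* and the NIL in each line, and Cvi array 1 is the lowest Cvi array of *QQS* and of its 5 most similar genes.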

How the data were processed

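The deposited table holds 1 normalized signal intensity per probe set and array, on a linear scale. MAS5 and RMA are named in the processing notes of the submitters with no version, and the sources used here do not give which of them made these intensities. Medians were 110 to 122, and the values were not normalized again. Of 22810 probe sets, 64 controls were left out. The annotation gives 1 gene for 13513 probe sets, several for 503 and none for 8730, and loci, names and gene order (no coordinates) came from the gene table of TAIR10.1.

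The log2 intensity of the 9 arrays was modelled on genotype alone (lmFit and eBayes of limma 3.58.1, R 4.3.3), and p-values were adjusted by Benjamini-Hochberg over 22746 probe sets. Genes outside the set were called at an adjusted p under 0.05 at any fold. The fit was tested on simulated data. The set, its rule, the lists and the tests were chosen with earlier results of these data known. The other phosphohexomutases, the sugar transporters, 6 further sugar phosphate and glycolysis genes and the neighbours were added once the annotation had been read, by name or gene order. The rule named the loci of the set, called genes of the lists, relatives of the set's enzymes and the 5 most similar probe sets by r, and the other measured carbohydrate genes were given too. Of the lists, DNA methylation (16 genes), the *QQS* partner *NF-YC4* and the root cap have no gene named here. Alternatives were quantile normalization, leaving out probe sets under the limit of dim signals (41.4), the 6 arrays compared, a replicate block, eBayes with trend and robust estimation, adding 16 to the signal, a fold of at least 2 and leaving out each replicate. The number of arrays limits the precision.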

Additional observations from a re-analysis of the deposited data

How the results depend on the processing

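The differences of *QQS* and *PGM2* between Cvi and L*er* kept their direction under every alternative and moved by more than the spread between replicates only when 16 was added to the signal (5.43 and −2.29). The number of called carbohydrate genes outside the set, 1 in the comparison of Cvi with L*er*, was 0 in the fit to the 6 arrays, 0 without dim probe sets, which removes *GWD2*, 0 with a fold of at least 2, 2 with 16 added and 3 with quantile normalization. It ranged from 0 to 4 when 1 replicate was left out, with 4 without Cvi replicate 1 (*GWD2*, *SS5* and *SPP2* higher, *cPGI* lower). The cause was not tested. Between the NIL and L*er* the number was 0 in every alternative. The shares called over all probe sets under the alternatives are not given here, so these counts have no background beside them. With the replicate number as a block, the difference of *QQS* stayed at 6.43 and the count at 1. Same-numbered arrays deviated together at r = −0.26 to 0.23 for Cvi and L*er* and 0.03 to 0.06 for the NIL and L*er*, so the numbers were not taken as pairs, although each NIL array correlated best with its own number. For 5 of the genes most like *QQS* or *PGM2*, the NIL minus L*er* difference lay near 0 and changed sign. Without single replicates it ran from −0.01 to 0.09 for AT5G28560, −0.15 to 0.04 for AT1G03710, −0.12 to 0.01 for AT1G30990, −0.06 to 0.01 for *AILP1* and −0.08 to 0.02 for AT4G26910, and with quantile normalization it was 0.02 for *AILP1* and 0.00 for AT4G26910. Without detection calls, signals near the bottom of the scale, such as *QQS* in L*er* and *GWD2*, limit what can be read from a ratio.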

Other observations

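All 17 SWEET and tonoplast monosaccharide transporter genes named in the annotation were looked at, a list drawn up from gene names. Of them, 5 differed between Cvi and L*er*. Between Cvi and L*er*, 2 were higher and 3 lower in Cvi at an adjusted p under 0.05 in limma, with a median difference of 0.09, and 12 did not pass. Of these, *SWEET13* had a difference of 1.04 (SE 0.31, limma adjusted p = 0.0513) and passed under 5 of 15 alternatives. Its difference was 0.71 without Cvi replicate 1 (adjusted p = 0.0472) and 1.35 without Cvi replicate 2 (adjusted p = 0.0111, the lowest). *SWEET2* had one of −0.34 (adjusted p = 0.17) and passed without Cvi replicate 1 (−0.48, adjusted p = 0.012). Over all probe sets, 5.75% were higher and 7.27% lower in Cvi. *SWEET14*, a sucrose transporter gene, had signals of 116, 76.4 and 98.1 in Cvi, 35.5 to 40.7 in L*er* and 36.3 to 41.6 in the NIL (Cvi minus L*er* 1.34, SE 0.15, adjusted p = 1.63e-04). The tonoplast transporter gene *TMT2* was higher in Cvi by 0.53 (adjusted p = 0.0454), a call lost under 10 alternatives, with an adjusted p of up to 0.18. The vacuolar fructose transporter gene *SWEET17* was lower in Cvi by 1.32 on the log2 scale (difference −1.32, SE 0.21, adjusted p = 0.00175), with signals of 29.7, 52.8 and 30.2 against 81.4 to 97.7 in L*er* and 54.8 to 70.5 in the NIL.

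*SWEET11* and *SWEET3* were lower than in L*er* both in Cvi and in the NIL, comparisons that share the L*er* arrays. Of the 17 transporter genes, 2 were lower and 0 higher in the NIL at the adjusted threshold in limma (4 and 0 at an unadjusted p under 0.05). Over all probe sets, 0.255% were lower and 0.101% higher in the NIL (2.8% and 1.04% at an unadjusted p under 0.05). *SWEET11*, a sucrose transporter gene of phloem loading, had signals of 357, 439 and 364 in Cvi, 907, 985 and 752 in L*er* and 383, 486 and 486 in the NIL. Its differences from L*er* were −1.19 in Cvi (limma adjusted p = 3.14e-04) and −0.96 in the NIL (limma adjusted p = 0.0199). *SWEET3* had 68.6, 89.6 and 87.7 in Cvi, 171, 182 and 163 in L*er* and 84.4, 108 and 87.3 in the NIL, with differences of −1.08 (limma adjusted p = 4.18e-04) and −0.89 (limma adjusted p = 0.0233). Neither NIL call held when some of the replicates were left out. In 5 of the 9 such fits for each gene the limma adjusted p rose above 0.05, and it reached 0.136 for *SWEET11* and 0.161 for *SWEET3*. Each of these 5 fits left out an L*er* or NIL array. No explanation was tested.

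Another 6 genes of sugar phosphate metabolism and glycolysis were taken from the names in the annotation. None passed in limma between Cvi and L*er* (2 at an unadjusted p under 0.05). Over all probe sets, 5.75% were higher and 7.27% lower in Cvi at the adjusted threshold (11.9% and 13% unadjusted). Between the NIL and L*er* none passed either (0 at an unadjusted p under 0.05). There, 0.101% of all probe sets were higher and 0.255% lower (1.04% and 2.8% unadjusted). With 6 genes, these counts are near the background. The gene *cwINV6*, named for cell wall invertases, had signals of 130, 75.3 and 67.9 in Cvi and 112 to 129 in L*er*. Its difference was −0.46 (SE 0.20, limma adjusted p = 0.192), and it passed without Cvi replicate 1 (−0.75, adjusted p = 1.68e-04). *GAPC2*, a cytosolic glyceraldehyde phosphate dehydrogenase gene, had one of 0.25 (adjusted p = 0.126) and passed with 16 added to the signal (adjusted p = 0.0423).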
